A study of Drosophila melanogaster with 4 samples.

Results

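The regions described here are stretches of the X chromosome of Drosophila melanogaster that were enriched for RNA polymerase II (Pol II) in chromatin immunoprecipitation followed by sequencing (ChIP-seq). They are the entries of the authors' list for the replicate set that lie on the X with a midpoint at least 2 Mb from the centromere end of the 22.4 Mb sequence. Of the 1810 X regions in that list, 1739 met this rule, out of 9885 regions in the whole list, and the remaining 71 lay nearer to the centromere. The samples were whole embryos of the wild-type strain Oregon-R, 14 to 16 h old, all tissues mixed. There were 2 Pol II ChIP libraries, made with an abcam antibody, and 2 input libraries, which have no region list of their own here. The sex of the embryos is not given in the labels. Positions are on FlyBase release 5 and are counted from 1.

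Pol II transcribes protein-coding genes, and in Drosophila embryos much of it sits near gene starts, where it can pause before it moves on into the gene. The X is the chromosome that males carry in a single copy and females in a pair. In males the dosage compensation complex, built from the MSL proteins and roX RNAs, binds along the X and raises the output of its genes. Like the autosome arms, the X holds gene-rich and gene-poor stretches.

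Pol II regions were found along the whole analysed X, at 85.1 regions per Mb, and they covered 19.5% of its 20.4 Mb. The lists of the separate replicates were shorter. Replicate 1 held 865 regions in the same stretch and replicate 2 held 873, or 42.4 and 42.7 regions per Mb, covering 9.75% and 9.80%. The mean over the replicates was 42.6 regions per Mb ± 0.3 (SD, n = 2). The same rule applied to the arms 2L, 3L and 3R, each without the 2 Mb at its own centromere end, left 5569 regions of the replicate-set list. Density in that list was 85.1 regions per Mb on the X, against 76.7 on 2L, 83.2 on 3L and 80.3 on 3R. The X was 1.06 times as dense as the 3 arms together in the replicate-set list. In the replicate lists the ratio was 0.993 ± 0.008 (SD, n = 2), so the higher density of the X was not seen there. With the lower-scoring regions of each list left out, up to its median, the replicate-set ratio was 1.71. That filter selects on the score, which was higher on the X, so it keeps more of the X by construction. The value of 1.71 is therefore no separate result about density. The 2 ChIP libraries are the only replicates, and regions of a chromosome are not. Arm 2R was not among the arms compared. With the 4 arms used, the X included, a permutation over arms cannot give a one-sided p below 0.25, so no test between arms was run.

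Taken in 4 equal segments, the analysed X was densest at the end nearest to the centromere. Counted from the telomere end, the segments had 87.4, 80.7, 78.7 and 93.8 regions per Mb in the replicate-set list. The segment nearest to the centromere led, and the replicate lists averaged 47.3 ± 2.4 regions per Mb there (SD, n = 2). The other segments averaged 42.8 ± 1.5, 39.1 ± 0.7 and 41.0 ± 1.0 in the replicate lists (SD, n = 2). Median width stayed between 1860 and 1933 bp over the segments, and median score between 0.526 and 0.530. The score is the authors' value per region and behaves as the log2 of a ratio of unstated denominator. It is used within a list, and between the replicate lists only for regions that both hold.

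In 500 kb bins the number of regions ranged from 16 to 76, with a median of 42.5 over 40 full bins. The densest bins lay side by side near the telomere end. X from 1500001 to 2000000 held 76 regions, with 39 in replicate 1 and 36 in replicate 2, and X from 2000001 to 2500000 held 73, with 37 in each replicate. Regions covered 37.1% and 37.9% of these bins. Next came X from 6500001 to 7000000 with 68 regions, X from 15500001 to 16000000 with 62, and X from 5500001 to 6000000 and from 11000001 to 11500000 with 58 each. Dense and sparse stretches could adjoin. The bin after the third densest, X from 7000001 to 7500000, held 20 regions, with 11 in replicate 1 and 6 in replicate 2.

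The sparsest bin was X from 3000001 to 3500000, with 16 regions, 10 in replicate 1 and 9 in replicate 2, and 6.03% of its bases covered. X from 14000001 to 14500000 held 22 regions, and the bins from 1 to 500000 and from 5000001 to 5500000 held 24 each. Replicates ordered the bins alike. Over the 40 bins, Spearman's rho between their region numbers was 0.90 and Pearson's r was 0.87. These bins come from the same libraries and genome, so this is a description. The number of regions in a bin had a Spearman rho of 0.01 with their median width and 0.11 with their median score.

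**Figure D1:**
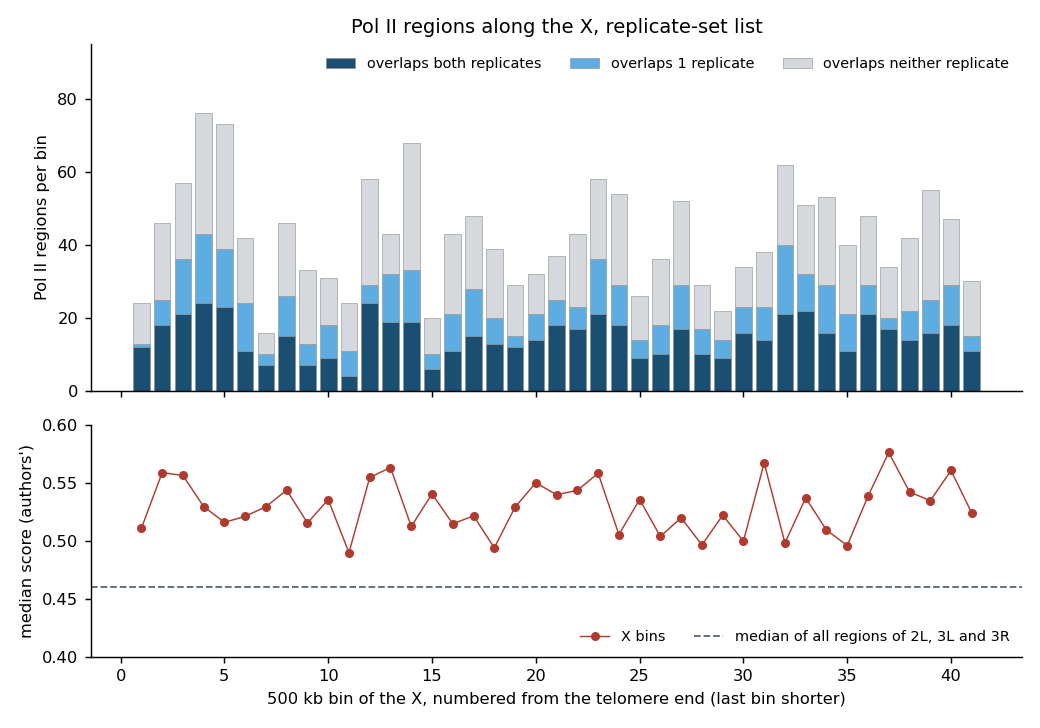
Upper panel: number of X regions of the replicate-set list per 500 kb bin, numbered from the telomere end, stacked by the replicate lists they overlap; the last bin is shorter. Lower panel: median score of each bin, on an axis that does not start at 0, with the median of all regions of 2L, 3L and 3R as a dashed line. Bins 4 and 5 hold 76 and 73 regions and bin 7 holds 16, and every full X bin lies above the dashed line at 0.460.

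In the replicate-set list the median gap between neighbours was 3310 bp on the X, against 3685 bp on 2L, 3L and 3R together. Without the lower-scoring regions the X median was 5574 bp. The middle part of the gaps, from the 25th to the 75th percentile, ran from 1118 to 9290 bp on the X. Of the 1738 gaps, 400 (23.0%) were at most 1 kb long, and 63 were longer than 50 kb. Gaps of 50 kb or more made up 3.62% of all gaps but 31.8% of the bases between regions. Among regions that overlapped both replicate lists, the median gap was 15.0 kb on the X, against 16.2 kb on 2L, 15.3 kb on 3L and 15.4 kb on 3R. Within the list of replicate 1 the median gap was 9542.5 bp on the X and 9442 bp on the 3 arms. Within that of replicate 2 it was 9499.5 bp and 9853 bp, so the direction differed between the replicates.

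The longest stretch without a region ran over 264 kb, X from 7237297 to 7501492. Next were 176 kb from 13891593 to 14067778, 150 kb from 6267321 to 6417151, 148 kb from 7633646 to 7781390, and 129 kb from 251015 to 380045. No region of either replicate list had its midpoint in any of these 5 stretches. The first member of the list began at 36831, and the sequence before it was empty. The longest stretch without a region that both replicates share was 350 kb, X from 13717376 to 14067778, and it held 6 members, of which 4 overlapped neither replicate. Read depth is unknown, so an empty stretch may lack Pol II or lack reads.

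Closely packed regions formed runs. Joined across gaps of at most 1 kb, the 1739 regions gave 289 runs of 2 or more members, which held 689 regions (39.6%). Runs of 4 or more were 26 in number, and the run with the most members had 7. The longest run, 26.5 kb from 10655417 to 10681919, had 5 members that covered 95.2% of it, 3 of them in both replicates and 2 in neither. Of the 5 longest runs, 2 were the widest members by themselves, and another, 20.2 kb from 9922904 to 9943067, had 2 members in both replicates. A run of 20.1 kb from 2380340 to 2400457 had 6 members, of which 1 overlapped both replicates and 3 overlapped neither.

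**Figure D2:**
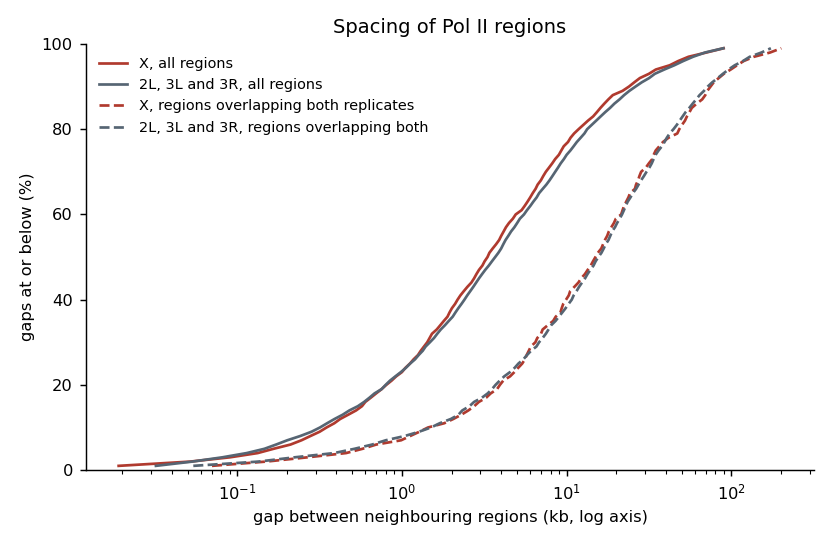
Share of gaps (percent, vertical axis) at or below a given length (kb, log axis) between neighbouring regions of the replicate-set list on the X and on 2L, 3L and 3R. Solid lines are all regions, with medians of 3.31 kb on the X and 3.69 kb on the arms; dashed lines are regions that overlap both replicates, where the curves run close together.

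X regions were narrow. The median width was 1888 bp on the X and 1948 bp on 2L, 3L and 3R, and 81.4% of X regions were at most 3 kb wide, against 81.8% on the arms. In the replicate lists the median X width was 2029 and 2033 bp. The narrowest X region was 1001 bp wide, and 418 X regions (24.0%) were narrower than any region of a replicate list. At the other end, 92 regions (5.29%) were 5 kb wide or wider and 11 exceeded 10 kb. Of the 92, 87 overlapped both replicates and 1 overlapped neither, while 37.8% of the whole list, at any width, overlapped both. Wide regions of the arms were alike in this. Above 5 and up to 10 kb, 94.0% of 250 arm regions overlapped both, against 93.8% of 81 X regions, and above 10 kb 100% did on the arms and on the X.

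Width and score were tied in a way that changed with width. Up to 1800 bp, where 46.1% of X regions lay, scores were lower in wider regions (Spearman rho of -0.46 across 802 regions). Above 1800 and up to 2300 bp they were mostly higher in wider regions (rho of 0.77 across 419 regions), with the highest median from 2100 to 2200 bp. In steps of 100 bp from 1800 to 2400 bp, the median score was 0.423, 0.459, 0.552, 0.808, 0.758 and 0.642. The share that overlapped both replicates was 6.49%, 32.3%, 73.6%, 86.7%, 75.5% and 65.7% over the same steps. Both were thus lower again above 2200 bp. Above 2300 bp the tie was loose (rho of 0.30 across 518 regions). The same shape was found on 2L, 3L and 3R, with rho of 0.78 across 1519 regions between 1800 and 2300 bp. These width limits were chosen after the plot of width against score had been seen.

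**Figure D3:**
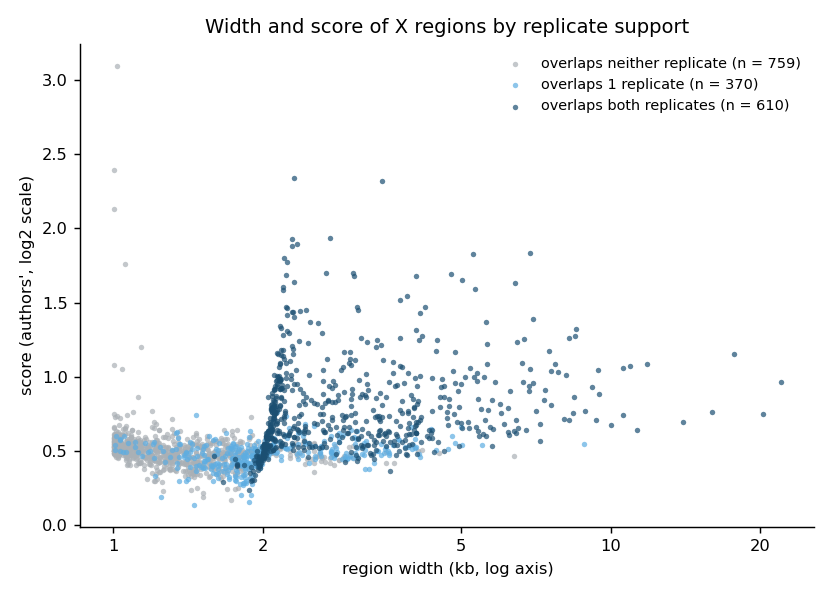
Score (authors' value, log2 scale) against width (kb, log axis) of the 1739 X regions, with 1 point per region coloured by the replicate lists it overlaps. Points that overlap both replicates rise steeply at about 2 kb and spread out to 22.0 kb. Of the regions up to 1300 bp wide, 94.0% overlap neither replicate, among them a few high ones near 1 kb.

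Replicate support split the X list into parts of unlike kind. Of the 1739 regions, 610 overlapped a region in both replicate lists, which is 35.1% (Wilson 95% interval 32.9 to 37.4, counting error only), against 37.8% of the whole replicate-set list. A further 370 (21.3%, against 21.1% of the whole list) overlapped 1 replicate, 176 of them replicate 1 and 194 replicate 2. The other 759 (43.6%, interval 41.3 to 46.0, against 41.1% of the whole list) overlapped neither. On 2L, 3L and 3R together 38.8% overlapped both (interval 37.5 to 40.1) and 40.1% neither (interval 38.8 to 41.4). By replicate, 786 X regions (45.2%, against 48.2% of the whole list) overlapped replicate 1 and 804 (46.2%, against 48.5%) overlapped replicate 2. The X shares are near those of the whole list. Without the regions narrower than any replicate region, 27.7% of X regions overlapped neither replicate.

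Regions in both replicates were wider and scored higher, as a group, than the rest. They had a median width of 2697 bp. Regions in 1 replicate had 1906 bp and regions in neither 1287 bp. Median scores were 0.728, 0.488 and 0.495 in the same order. Regions in both replicates made up 53.0% of all bases in X regions, and those in neither 27.2%. Support changed abruptly along the score. The X list was cut by score into 10 classes of equal size. In the 5 lowest classes between 8.05% and 13.2% of regions overlapped both replicates, and in the 2 highest 92.5% and 96.0% did. Replicate-set scores come from the same libraries as the replicate lists, so this is no independent check of either. Width is not independent of support either, since no replicate region was narrower than 1301 bp. Of the 418 X regions below that width, 0 overlapped both replicates and 393 overlapped neither.

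Supported and unsupported regions were mixed along the chromosome. After a region in both replicates, the next one was also in both in 34.4% of cases, close to the 35.1% of all X regions. After a region in neither, the next was in neither in 43.1% of cases, against 43.6% overall. The median distance from a region in neither replicate to the nearest one in both was 5792 bp on the X and 5979 bp on the 3 arms, and 25.6% on the X and 25.5% on the arms lay within 2 kb of one. Scores of neighbouring X regions showed no relation (rho of -0.01).

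X scores were higher than those of 2L, 3L and 3R up to the 75th percentile, with a smaller gap at the top of the scale. At the 10th percentile the replicate-set score was 0.404 on the X, against 0.347, 0.340 and 0.342 on 2L, 3L and 3R. At the median it was 0.528 on the X, against 0.457, 0.461 and 0.462. At the 75th percentile it was 0.638 on the X, against 0.592, 0.569 and 0.582. At the 90th percentile it was 0.928 on the X, against 0.904, 0.892 and 0.899. In the replicate lists, X minus the 3 arms was 0.083 ± 0.006 at the 10th percentile and 0.089 ± 0.017 at the median (SD, n = 2). At the 75th percentile it was 0.079 in replicate 1 and 0.057 in replicate 2. At the 90th percentile it was 0.066 in replicate 1 and -0.020 in replicate 2, so the direction differed between replicates there. When the lower-scoring regions of the list, up to its median, were left out, X minus the arms at the median was -0.041, under a filter that selects on the score itself.

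The higher level held along the X. All 40 full bins had a median score above 0.460, the median of the 3 arms, with a range from 0.490 to 0.577. Of 138 bins of the same size on the arms, 4 had a median above 0.528, the X median, and the range was 0.415 to 0.588, so the ranges overlapped. In the replicate lists 39 of 40 X bins in replicate 1 and 36 of 40 in replicate 2 lay above the arm median of the same list. More arm bins reached the X level there. Of the 138 arm bins, 15 in replicate 1 and 16 in replicate 2 lay above the X median of the same list. The shift was present in regions that overlapped neither replicate, with medians of 0.495 on the X and 0.428 on the arms, and in those that overlapped both, with 0.728 and 0.648. By width, the X median was higher in 5 of 6 classes. Regions of at most 1300 bp had a median score of 0.521 on the X and 0.446 on the arms, and those above 5 and up to 10 kb had 0.843 and 0.680. Regions wider than 10 kb went the other way, with 0.761 for 11 X regions and 0.786 for 53 arm regions, as did the step from 2200 to 2300 bp, with 0.758 and 0.782.

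At equal score, replicate support on the X and on the arms stood furthest apart in the middle of the scale. For scores from 0.5 to 0.6, 19.1% of 508 X regions overlapped both replicates (Wilson interval 15.9 to 22.7), against 53.6% of 769 regions on the arms (interval 50 to 57.1). For scores from 0.6 to 0.7 the shares were 61.9% of 189 X regions (interval 54.8 to 68.5) and 94.1% of 355 arm regions (interval 91.1 to 96.1). Below 0.4 they were 9.15% and 10.8%, and from 0.4 to 0.5 they were 9.66% and 15.8%. From 0.7 to 0.9 they were 91.8% and 97.9%, from 0.9 to 1.2 98.3% and 98.9%, and from 1.2 up 92.9% and 97.6%. The X share was thus lower in every class, and by most from 0.5 to 0.7. The X regions of the class from 0.5 to 0.6 were also narrower, with a median of 1544 bp against 2118 bp on the arms. X scores were higher among regions in both replicates and among regions in neither, so equal scores mark different ranks on the X and the arms. Support at equal score was therefore not compared apart from the score shift, nor apart from width. What sets the difference in support was not tested. Over all scores, 35.1% of X regions and 38.8% of arm regions overlapped both replicates. This comparison was chosen after the scores had been seen, and what moves the X scores was not tested.

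**Figure D4:**
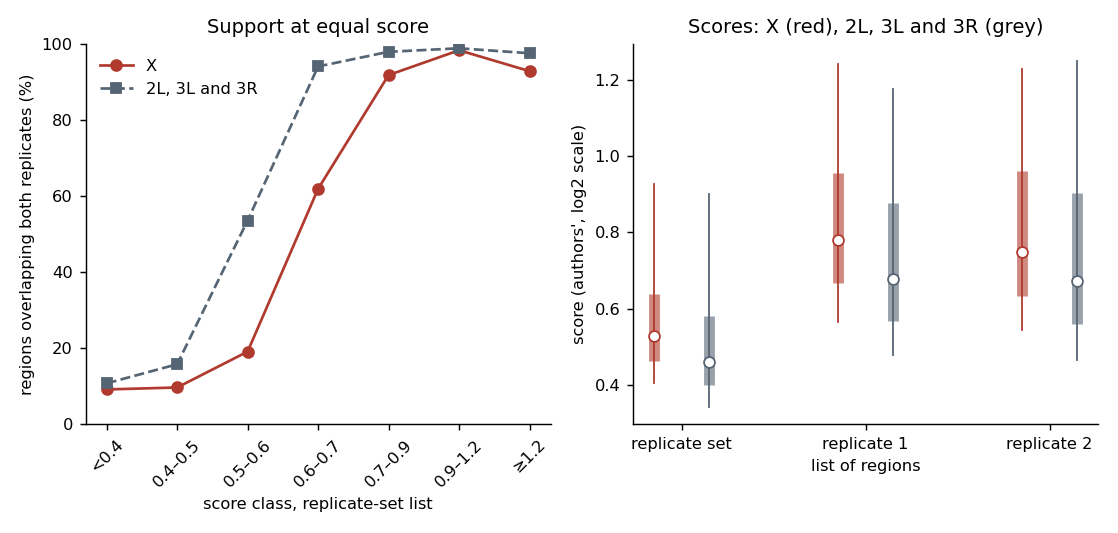
Left: share of regions overlapping both replicates (percent) in each score class of the replicate-set list, for the X and for 2L, 3L and 3R. The X curve lies lower in every class, and by most from 0.5 to 0.7. Right: scores in each list, with the median as a point, the 25th to 75th percentile as a thick bar and the 10th to 90th as a thin line, on an axis that does not start at 0; the X medians are higher in all 3 lists, while the tops of the lines in replicate 2 are 1.23 on the X and 1.25 on the arms.

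Replicates gave similar positions and scores for the X regions they shared. In replicate 1, 657 of the 865 regions of this stretch (76.0%, interval 73.0 to 78.7) had a partner in replicate 2, against 77.6% on the 3 arms. In replicate 2, 661 of 873 (75.7%, interval 72.8 to 78.4) had a partner in replicate 1, against 77.4% on the arms. A total of 528 members overlapped exactly 1 region in each replicate. For these, the median distance between the replicates was 75 bp at the start and 70.5 bp at the end. The replicate-set region was wider than both replicate regions in 481 of the 528, with a median of 2416 bp, against 2080 bp in replicate 1 and 2088 bp in replicate 2.

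Between replicates, the scores of these 528 members had a Spearman's rho of 0.75 and Pearson's r was 0.83, across regions that share their libraries. The median score was 0.808 in replicate 1 and 0.800 in replicate 2, and the scores of a region differed by a median of 0.116. A few differed widely. X from 17782793 to 17784981 scored 0.807 in replicate 1 and 1.77 in replicate 2, which placed it 1753 and 85 in the 2 lists. It was named after its values had been seen. The replicate lists also held X regions with no overlap in the replicate-set list, 15 in replicate 1 and 6 in replicate 2, all between 1309 and 1732 bp wide.

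**Figure D5:**
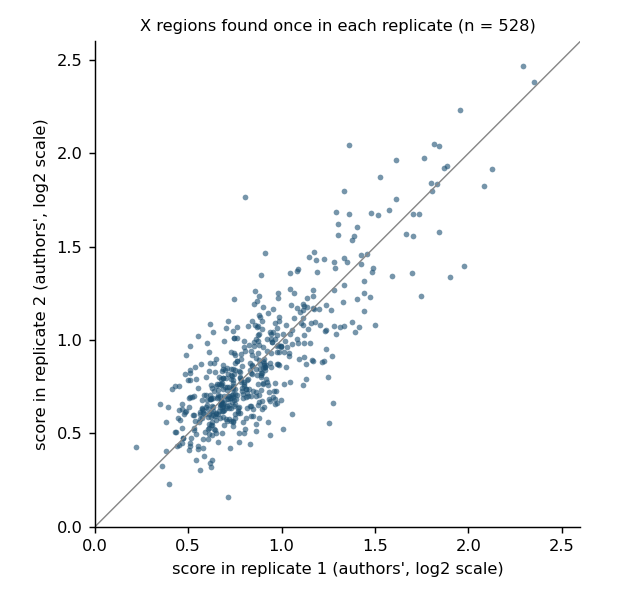
Score of each of the 528 X regions found exactly once in each replicate, with replicate 1 on the horizontal and replicate 2 on the vertical axis (authors' values, log2 scale) and the line of equal scores. Most points lie between 0.5 and 1.0 around the line, and the few highest are above 2 in both replicates.

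Among regions in both replicates, the highest-scoring one was X from 5233179 to 5235482, 2304 bp wide. It scored 2.35 in replicate 1 and 2.38 in replicate 2, where it ranked 4 and 7 among all regions of the genome. It lay in one of the sparsest bins, with 5477 bp and 15173 bp free of regions before and after it. X from 10637328 to 10640802 came next, with 2.29 and 2.47 in the replicates and ranks of 6 and 4. It was 3475 bp wide and stood 9752 bp before the next region. X from 19246112 to 19248839 scored 2.13 in replicate 1 and 1.91 in replicate 2, at ranks 9 and 42.

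The other 7 of the 10 highest had replicate-set scores from 1.77 to 1.92. They were X from 11514975 to 11517255, from 12476001 to 12478336, from 6223816 to 6226098, from 5793000 to 5799870, from 8302232 to 8307523, from 15997822 to 16000027 and from 13648279 to 13650507. All 10 overlapped a single region in each replicate, and they were 2206 to 6871 bp wide. They were spread over the chromosome from 5.23 to 19.2 Mb, and none lay nearer to the telomere end, where the 2 densest bins are. Genes at these positions were not analysed here, since the gene table used is of release 6.

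The top of the X list by score mixed supported and unsupported regions. Of the 10 highest members, 7 overlapped both replicates and 3 overlapped neither. The 3 without support, at ranks 1, 2 and 5, were about 1 kb wide, narrower than any region of a replicate list. X from 6230823 to 6231837, 1015 bp wide, scored 3.09, the highest score of all 9885 regions. It lay 4724 bp after the region from 6223816 to 6226098, which both replicates hold with scores of 1.87 and 1.92. The others were X from 1416473 to 1417473, with a score of 2.39, and X from 12278759 to 12279759, with 2.13 and more than 45 kb free of regions on either side. Of the 131 members that scored 1 or more, 124 overlapped both replicates and 7 overlapped neither. In the whole replicate-set list, at any score, 37.8% overlapped both and 41.1% neither. High-scoring regions of the arms were mostly in both as well. At scores of 1.2 or more, 97.6% of 205 arm regions overlapped both and 2.44% neither, against 92.9% and 7.14% of 70 X regions.

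The 10 widest X regions scored from 0.643 to 1.15, above the X 75th percentile of 0.638. By score they ranked from 81 to 421 among the 1739 X regions, so none was at the very top. X from 12552379 to 12574378, 22.0 kb wide, scored 0.965 and overlapped 2 regions in replicate 1 and 5 in replicate 2. X from 2420271 to 2440512, 20.2 kb wide, scored 0.746, lay in the second densest bin and overlapped 5 regions in each replicate. X from 17994212 to 18011941 was 17.7 kb wide, scored 1.15 and overlapped 3 regions in replicate 1 and 2 in replicate 2. It followed another of the 10 widest, X from 17978315 to 17989623, after 4588 bp.

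The remaining 6 of the 10 widest in both replicates were X from 9922904 to 9938911, 9882859 to 9896820, 4571634 to 4583453, 13486722 to 13497650, 10671356 to 10681919 and 15389620 to 15400180. They were 10.6 to 16.0 kb wide. Of the 10, only the region from 10671356 to 10681919 overlapped a single region in each replicate. It lay 30.6 kb after the second highest-scoring region of both replicates. Over the whole X, 64 members overlapped 2 or more regions of replicate 1 and 55 overlapped 2 or more of replicate 2. How the replicate-set regions were made is not stated, and what sets their widths was not tested.

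At the position limit, the last regions inside were X from 20388087 to 20391766, 3680 bp wide with a score of 0.939, and X from 20394854 to 20396564, 1711 bp wide with a score of 0.327. The first outside were X from 20564542 to 20566476, 1935 bp wide with a score of 0.419, and X from 20654864 to 20655864, 1001 bp wide with a score of 0.541.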

How the data were processed

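Per the file headers, positions are on FlyBase release 5. Bowtie 0.12.7 is the aligner in the submitters' processing notes. The authors deposited a list of significantly enriched regions for each ChIP replicate and another for the replicate set. No source used here names the region caller, its threshold, the treatment of reads that map to several places or the way replicates were joined. Each region carries a score deposited by the authors, whose formula is not stated. In the replicate-set list, 28 of the 190 differences between the 20 commonest scores matched log2 of a whole-number ratio (terms up to 32, tolerance 1e-06). No difference matched with natural or base-10 logarithms, so scores are described as log2 values. Sequencing depth is unknown, because the lists hold no read counts.

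Regions were assigned by midpoint. A region was supported by a replicate when it overlapped a region of that list by at least 1 bp. A gap is the number of bases between neighbouring regions. The 2 replicates are not stated to come from separate embryo collections, so their spread may be technical. Shares carry Wilson 95% intervals. Results are descriptions without tests, since there is a single group with values and regions are not replicates. The members and lists were chosen with earlier results of these data known. Regions named are the 10 highest-scoring members, the 10 highest-scoring and 10 widest that both replicates support, the 5 longest gaps, the 5 densest and 5 sparsest bins of 500 kb (ties included), the 5 longest runs and those at the position limit. Exceptions are stated beside them. Overlap, gap and coverage functions were tested on simulated data. Alternatives were other position limits, merging, score and width filters, other overlap rules and other bin sizes. The work used Python 3.11.15 with scipy 1.17.1, numpy 2.4.6, pandas 2.3.3 and, for the plots, matplotlib 3.10.9.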

Additional observations from a re-analysis of the deposited data

How the results depend on the processing

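Of 54 values recomputed under processing alternatives, 26 stayed within the tolerance used for them, 27 moved beyond it and 1 changed direction. The tolerance was a fold change for X density, and an interval for the shares of supported regions and for the score correlation. Otherwise it was the SD of the replicates, also for the covered share. X density stayed within its wide tolerance but fell from 85.1 per Mb. It was 61.1 without the lower-scoring part, 64.7 without the narrow regions and 73.7 after merging. With the lower-scoring part of each list, up to its median, left out, X minus arm median score turned to -0.041, a filter that selects on the score compared and keeps more of the X. It also gave an X density of 1.71 times that of the arms, 15.3% covered, a width of 2084 bp, a gap of 5574 bp, a median score of 0.573, and 29.4% of regions in both replicates and 48.6% in neither. Limits of 1 Mb gave 1.04 for the density ratio and 18.9% covered. Merging across gaps of up to 500 bp gave 1.07, 19.7%, 1994 bp, 4258 bp, 38.8% in both and 40.3% in neither. Keeping only regions as wide as the narrowest replicate region gave 17.2% covered, 2101 bp, 4722 bp, 46.2% in both and 27.7% in neither, by construction of fewer narrow regions. Reciprocal overlap of 50% gave 28.3% in both and 48.6% in neither, and extension by 500 bp gave 38.1% and 39.2%. With a replicate left out, 45.2% to 46.2% overlapped the other and 53.8% to 54.8% did not. Replicate density was 42.4 to 42.7 per Mb and coverage 9.75% to 9.80%. The densest bin held 1.79 times the median bin, 2.14 times in 250 kb bins, 1.63 times in 1 Mb bins, and 1.55 times for regions in both replicates. For shifts not set by the construction of an alternative, the cause was not tested. No paired analysis was possible because no values of the inputs were used here. Limits set by depth cannot be stated without read counts.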
